A study of Arabidopsis thaliana with 21 samples.

Results

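In late heart stage embryos of Arabidopsis thaliana, 82 nuclear genes were at least 4 times more abundant in the accession Landsberg erecta (Ler) than in Columbia-0 (Col-0). Members were selected on these levels themselves, as the gene models on chromosomes 1 to 5 with a mean of at least 5 CPM (counts per 1000000 counts of the library) in the 3 Ler libraries and at least 4 times the mean of the 3 Col-0 libraries. They are 82 of 26496 gene models with a count in any library, and 0.58% of the 14138 nuclear models that reached 5 CPM in Ler. A further 2 loci were left out beforehand and are not described. The same rule turned round, at least 4 times higher in Col-0, was met by 171 genes.

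RNA came from hand-dissected embryos, and the design has 7 genotypes with 3 biological replicates each. The genotypes differ in ASIL1 and ASIL2, whose trihelix proteins bind DNA and are known to hold seed maturation genes down. The mutants are asil1-1 asil2-2, labelled as mixed Columbia-0 and Landsberg erecta, asil2-2 in Ler, and asil1-1 asil2-1, asil1-1 and asil2-1, all in Columbia-0. The wild types are Ler and Col-0. No treatment is labelled beyond the genotypes. The labels do not give the number of plants behind a library, the number of lines behind asil1-1 asil2-2, or the generation at which its parents were crossed.

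Accessions of a selfing plant such as Arabidopsis are close to homozygous and differ from each other by sequence changes, gene gains and losses and chromatin marks, so a transcript can be present in one and nearly absent in the other. Ler carries the erecta mutation, and the reference genome is that of Col-0. In a plant from a cross, a gene near a selected mutation is usually inherited together with it, and a gene elsewhere can come from either parent.

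Totals ran from 1.49 M to 8.19 M counts per library (M, 1000000 counts), with 4.99 M to 5.41 M in Ler and 4.32 M to 5.77 M in Col-0. ASIL1 averaged 4.08 CPM in asil1-1 asil2-2, 3.38 in asil1-1 asil2-1 and 1.696 in asil1-1, against 38.0 in Ler and 38.5 in Col-0. ASIL2 averaged 6.26 CPM in asil1-1 asil2-2 and 9.96 in asil2-2, against 52.4 in Ler, and it averaged 46.0 in asil1-1 asil2-1 and 43.1 in asil2-1, against 52.8 in Col-0. The counts thus lay near the wild-type level in the libraries labelled asil2-1. Replicate 1 of asil1-1 asil2-1 stood apart, with 45.7% of its counts in a single locus, and so did replicate 2 of asil1-1 asil2-2, the shallowest library. Their median correlations with the other libraries were 0.750 and 0.851.

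In replicates 3 and 1 of asil1-1 asil2-1, part of these genes had more CPM than in the other genotypes labelled Columbia-0. AT4G19240 had 11.1 CPM in replicate 3 (77 reads), against at most 0.870 CPM in each of the 9 libraries of asil1-1, asil2-1 and Col-0, and AT1G24388 had 5.49 CPM there (38 reads), against at most 0.514 CPM. In replicate 1 it was other members, such as AT5G39770 with 9.67 CPM, against at most 0.441 CPM in the 9 libraries, and AT5G45113 with 8.22 CPM, against at most 0.463 CPM. Replicate 3 lay above all 6 single-mutant libraries in 47 of the 82 members, replicate 1 in 34 and replicate 2 in 18. The share of all models above those libraries was not counted, so these counts show nothing particular to the members. Genes low in Ler as well averaged higher in this genotype than in both wild types, such as 2 of the endosperm list below. MINI3 averaged 5.36 ± 8.97 CPM, against 0.128 in Ler and 0.375 in Col-0, and IKU2 3.87 ± 5.24 CPM, against 0 and 0.564 (SD, n = 3). Both SDs exceed the means, so the 3 libraries differed widely and these averages do not describe the genotype as a whole. The genotype is on neither side of the 4 comparisons below, but its libraries enter the estimate of the spread. The counts of called members without replicate 3 stood at 74, 42 and 0 in 3 comparisons, as with it, and at 9 in place of 8 in that of asil1-1 asil2-2 with asil2-2. Without replicate 1 they were 78, 52 and 0 in the same order and 21 in place of 8. With asil1-1 asil2-1 added to the single mutants on the Columbia-0 side, 73 members were higher in asil2-2.

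The members with the strongest contrast were close to absent in Col-0. AT4G19240, an uncharacterised gene, had 69.6, 26.2 and 81.7 CPM in asil1-1 asil2-2, 124, 126 and 136 in asil2-2 and 126, 124 and 103 in Ler, against 0.725, 0.183 and 11.1 in asil1-1 asil2-1, 0.351, 0.870 and 0.129 in asil1-1, 0, 0 and 0.171 in asil2-1 and 0.232, 0.173 and 0.441 in Col-0. The 9 libraries with Ler ancestry did not overlap with the other 12. Over the wild types this was 1834 reads in Ler against 4 reads in Col-0, a ratio of 429 per read sequenced. AT1G24388, also uncharacterised, had 53.2, 44.1 and 46.6 CPM in Ler, against 0, 0.173 and 0.220 CPM in Col-0. With 2 reads in Col-0 its ratio was 351, with an exact 95% counting interval of 96.8 to 2903.

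AT5G15360, another uncharacterised gene, had 15.2, 10.096 and 18.5 CPM in asil1-1 asil2-2, 16.9, 19.7 and 20.0 in asil2-2 and 27.9, 19.2 and 14.2 in Ler. Against these stood 0, 0 and 1.01 CPM in asil1-1 asil2-1, 0 in every asil1-1 library, 0, 0 and 0.171 in asil2-1 and 0.463, 0 and 0 in Col-0. Its ratio between the wild types was 149 (exact 95% counting interval 41.0 to 1238, 2 reads in Col-0). AT1G27570, annotated as a phosphatidylinositol 3- and 4-kinase family protein, and AT3G60920, which encodes a BEACH domain protein, each had a ratio of 72.3, and AT5G03810, a GDSL-type lipase, had 67.8. Intervals of these ratios cover counting error only.

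The stretches just upstream of these genes show where the annotated starts lie and what they share. The 200 bases before the start are given for AT4G19240 (chr4:10529093-10529292, minus strand) and AT5G15360 (chr5:4989183-4989382, minus strand), the members nearest to presence and absence that also kept a high level in asil1-1 asil2-2, and for AT1G27540 (chr1:9567907-9568106, minus strand) and AT1G27580 (chr1:9591076-9591275, minus strand), F-box genes that are near copies. Coordinates and sequences are from RefSeq, build TAIR10.1, written 5′ to 3′ on the gene's strand, and TATAAA or its reverse complement TTTATA is in capitals. They are the sequences of Col-0, the accession with the lower level, and the Ler sequences were not used here.
AT4G19240: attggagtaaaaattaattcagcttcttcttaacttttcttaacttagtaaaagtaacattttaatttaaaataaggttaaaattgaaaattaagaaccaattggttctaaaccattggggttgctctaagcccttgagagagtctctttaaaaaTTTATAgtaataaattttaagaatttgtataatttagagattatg
AT5G15360: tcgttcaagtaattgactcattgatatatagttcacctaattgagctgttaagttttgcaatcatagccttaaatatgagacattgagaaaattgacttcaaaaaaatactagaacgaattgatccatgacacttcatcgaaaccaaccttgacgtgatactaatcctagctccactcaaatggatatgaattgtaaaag
AT1G27540: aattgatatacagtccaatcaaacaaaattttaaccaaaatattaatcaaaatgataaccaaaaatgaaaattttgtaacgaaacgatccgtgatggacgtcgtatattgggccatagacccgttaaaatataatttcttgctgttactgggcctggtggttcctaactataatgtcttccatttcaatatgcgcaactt
AT1G27580: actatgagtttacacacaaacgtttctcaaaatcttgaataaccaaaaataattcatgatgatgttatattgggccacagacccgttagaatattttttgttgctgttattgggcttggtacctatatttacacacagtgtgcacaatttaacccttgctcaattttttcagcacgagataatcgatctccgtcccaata
The windows of AT1G27540 and AT1G27580 were identical in 55.9% of 245 alignment columns, and those of AT4G19240 and AT5G15360 in 51.3% of 236. TATAAA on either strand was in the 200 bases upstream of 44 of 82 members (53.7%) and of 41% of 27443 genes. GTGATT, a core of the GT element that trihelix proteins are known to bind, was in 4 members (4.88%) and in 12.4% of all genes. These are matches of letters in the Col-0 reference.

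**Figure D1:**
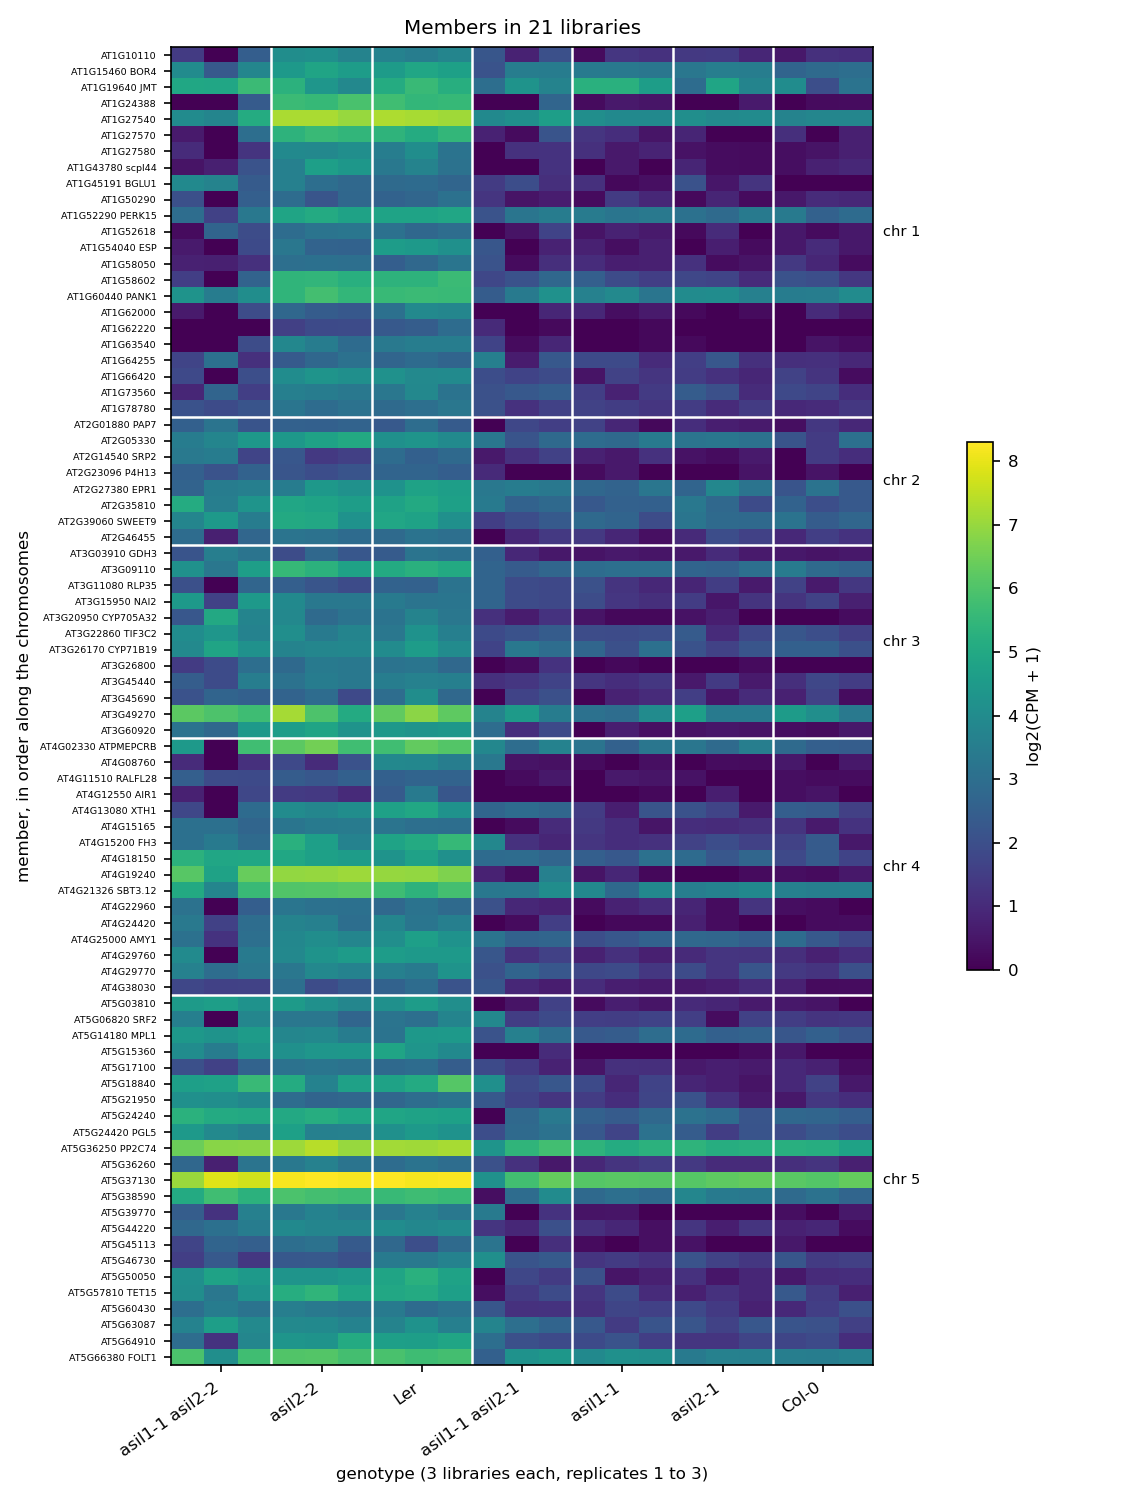
Transcript level as log2(CPM + 1) of the 82 members, in order along chromosomes 1 to 5 (rows), in the 21 libraries (columns, 3 per genotype, genotypes divided by white lines). Most members are high in the 6 asil2-2 and Ler libraries and low in the asil1-1, asil2-1 and Col-0 libraries. In asil1-1 asil2-2 the members resemble the lower group on chromosome 1, are mixed on chromosome 4 and are mostly high on chromosomes 2, 3 and 5.

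The members spanned a wide range of levels. Their mean in Ler ran from 5.02 to 303 CPM with a median of 13.3, and in Col-0 from 0 to 72.5 CPM with a median of 1.16. Reads in Col-0 were 0 in 3 members (AT1G45191, AT3G26800 and AT1G62220) and between 1 and 3 in a further 11. With Col-0 floored at 3 reads over the group, the median ratio was 7.42, and 40 members had a ratio of at least 8 and 29 of at least 16. Per kilobase of transcript, the highest Ler levels were 116 CPM per kb for AT1G24388, 107 for AT3G49270, an extensin-like gene, 107 for AT4G19240 and 102 for AT5G37130.

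A group of members was well expressed in Col-0 as well. AT5G37130, annotated as a protein prenylyltransferase superfamily member, had 314, 292 and 303 CPM in Ler, against 71.6, 66.9 and 79.1 CPM in Col-0. AT5G36250 (PP2C74), a protein phosphatase of the 2C type, had 139, 137 and 149 CPM in Ler, against 36.6, 34.7 and 26.4 CPM in Col-0. In both genes the replicates of each wild type lay close together. AT5G66380 (FOLT1), a folate transporter, averaged 55.5 CPM in Ler and 10.8 CPM in Col-0, and AT4G02330, a pectin methylesterase gene, 65.6 CPM in Ler and 5.11 CPM in Col-0.

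At the threshold of the ratio the nearest members were AT1G60440 (PANK1, pantothenate kinase, the first step of coenzyme A synthesis) at 4.01, AT1G52290 (PERK15, a receptor-like kinase) at 4.02 and AT2G39060 (SWEET9, a sugar transporter known from nectaries) at 4.03. Just outside lay LCR57 at 3.94, AT3G49040 at 3.90 and ACP5 at 3.83. At the threshold of the level the nearest members were AT1G62220 at 5.02 CPM, PAP7 at 5.03 and AT4G38030 at 5.03, and just outside lay LCR27 at 4.99, AT4G22410 at 4.89 and AT4G26170 at 4.78. The rule used these values, so they carry no test.

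**Figure D2:**
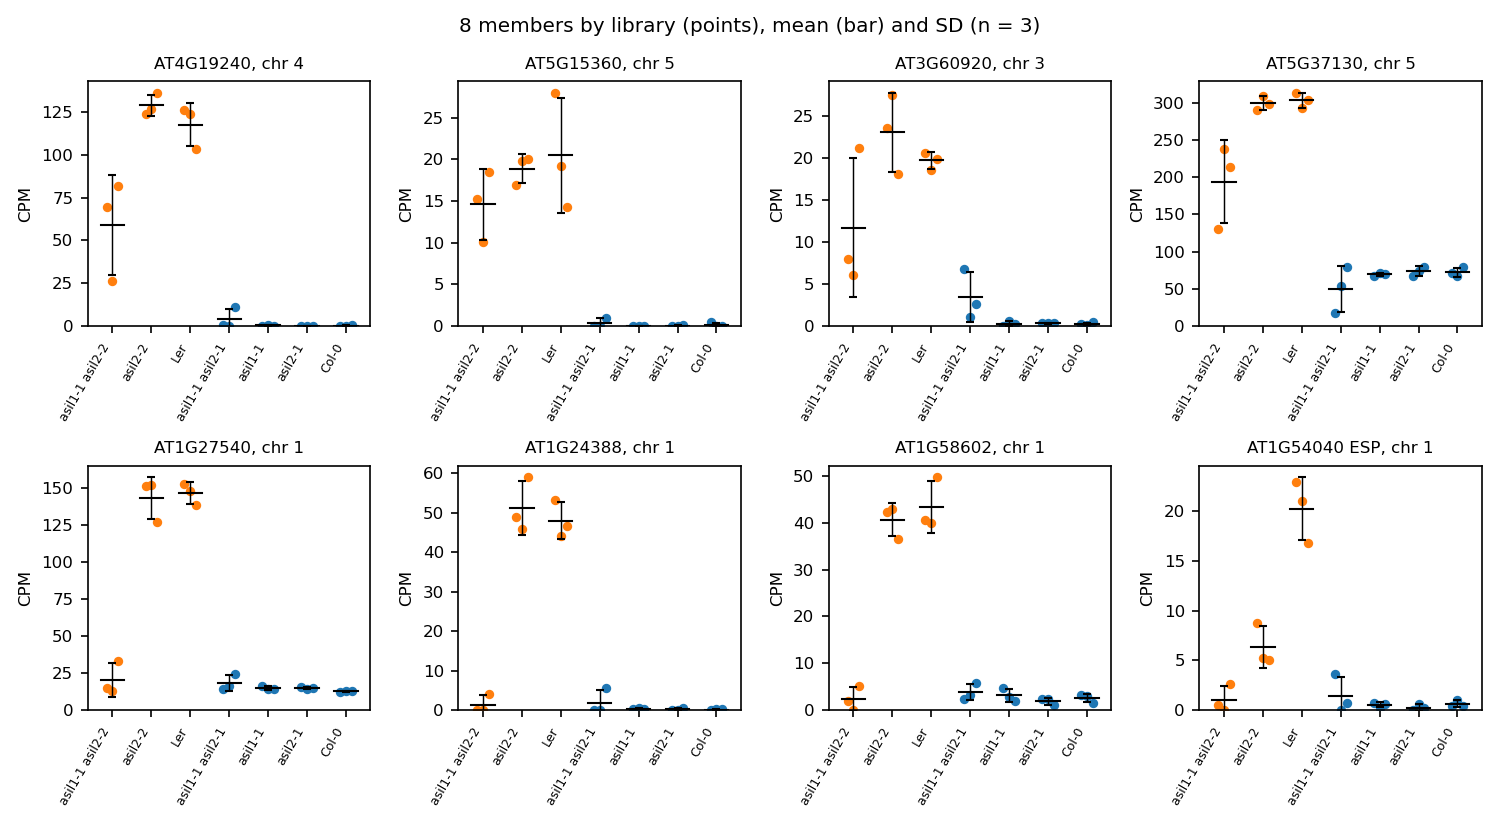
CPM of 8 members in each library (points), with the mean (bar) and SD (n = 3), by genotype; orange marks genotypes with Ler ancestry and blue those labelled Columbia-0. The 4 members in the upper row, on chromosomes 3 to 5, are raised in asil1-1 asil2-2, and the 4 in the lower row, on chromosome 1, lie near the Col-0 level there.

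To ask whether the contrast holds in libraries that did not choose the members, asil2-2 was set against the mean of the Columbia-0 single mutants asil1-1 and asil2-1 in a fit of the 15 mutant libraries. Of 81 members tested, 74 were higher in asil2-2 and 0 lower by edgeR's quasi-likelihood test (Benjamini-Hochberg adjusted p under 0.05), where 1.76% of 18062 models were called higher and 3.38% lower. AT4G12550 (AIR1) did not pass the filter on low counts. The median log2 fold change was 2.94 over the members and 0.01 over all models. In 78 members every asil2-2 library lay above all 6 single-mutant libraries. The share of all models that did so was not counted, and the 78 include members nearly without reads in the single mutants. In the single mutants alone 37 of the 81 would have passed the filter, of which 32 were called; the other 44 passed through groups in which they are higher, so their 42 calls carry no weight. Of the genes given with a log2 difference below, AT1G24388, AT1G27570, AT1G27580, AT4G15165, AT4G19240, AT4G29760, AT5G03810, AT5G15360, AT5G36260, BGLU1, ESP and TET15 are among these 44. Their log2 differences are given without a test. AT4G08760, which was not called, is among the 44 also. Without a filter 72 members were called higher, against 1.04% of models. asil2-2 differs from these mutants in accession and in its ASIL genotype, which cannot be told apart in this comparison.

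The well expressed AT5G37130 averaged 299 CPM in asil2-2, against 69.7 in asil1-1 and 74.0 in asil2-1, a log2 difference of 2.06 ± 0.21 (edgeR adjusted p = 1.03e-05). PP2C74 had 134, 170 and 129 CPM in asil2-2, against 41.5, 33.2 and 39.4 in asil1-1 and 40.9, 35.1 and 36.3 in asil2-1, with no overlap (log2 difference 1.94 ± 0.15, edgeR adjusted p = 4.57e-07). The log2 differences of the called members ran from 1.21 to 9.35, the highest being that of AT4G19240, followed among the genes above by AT5G15360 at 8.83 and AT1G24388 at 7.53. For these 3, nearly without reads in the single mutants, the fitted size depends on the prior count, and they passed the filter through other groups, so no test is given for them.

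Of the 82 members 7 were tested and not called. AT1G19640 (JMT), which makes methyl jasmonate, varied within genotypes, with 39.7, 19.7 and 13.6 CPM in asil2-2, against 37.6, 37.5 and 23.4 in asil1-1 and 6.61, 28.3 and 12.5 in asil2-1. These groups overlapped (log2 difference 0.12 ± 0.37, edgeR adjusted p = 0.960). AT2G27380 (EPR1), an extensin gene known from endosperm, had 10.3, 20.3 and 17.4 CPM in asil2-2, against 5.80, 5.22 and 8.52 in asil1-1 and 5.32, 13.3 and 8.05 in asil2-1 (log2 difference 1.07 ± 0.31, edgeR adjusted p = 0.0589). AT4G08760, uncharacterised, had 2.57, 1.02 and 3.25 CPM in asil2-2 and 13.8, 13.4 and 10.3 CPM in Ler (log2 difference of asil2-2 from the single mutants 3.93 ± 1.14, edgeR adjusted p = 0.0575). The others were AT1G64255 (a MuDR transposase), AT3G11080 (RLP35), AT5G06820 (SRF2) and AT5G46730 (a glycine-rich protein).

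AT1G54040 (ESP), the epithiospecifier protein that diverts glucosinolate breakdown to nitriles and is known to differ between these accessions, had 22.9, 21.04 and 16.8 CPM in Ler, against 0.463, 1.04 and 0.441 CPM in Col-0. In asil2-2 it had 8.80, 5.27 and 5.03 CPM, below all Ler libraries and above all single-mutant libraries (log2 difference from the single mutants 4.08 ± 0.90). Its call, which carries no weight because of the filter, was lost without asil2-2 replicate 1 and with asil1-1 or asil2-1 alone on the other side. Of 17 loci of glucosinolate synthesis and breakdown, ESP was the single member. Of the 12 that were tested in asil2-2 against the single mutants, ESP and AOP1 were higher and the myrosinase gene TGG2 and the nitrile specifier gene NSP1 were lower. NSP1 averaged 3.11 ± 1.53 CPM in asil2-2, against 29.8 ± 5.599 in asil1-1 and 27.0 ± 2.605 in asil2-1 (SD, n = 3). Among 5 loci with known Ler and Col-0 alleles none was a member, and FRI, which delays flowering, was lower in asil2-2, with a mean of 2.57 CPM, against 7.81 in asil1-1 and 11.7 in asil2-1 (edgeR adjusted p = 0.000606).

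Between the Columbia-0 mutants asil1-1 and asil2-1 edgeR called 0 of 81 members, where 0.0221% of models were called higher and 0.00554% lower. At an unadjusted p under 0.05 there were 2, and DESeq2 called 0. The lowest p was that of JMT, which averaged 32.8 CPM in asil1-1 and 15.8 CPM in asil2-1 (log2 difference 1.09 ± 0.44, edgeR adjusted p = 1).

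By annotation the members were mixed, and the counts below are descriptions. Of 82, 10 were uncharacterised or hypothetical (12.2%, against 3.86% of the models at 5 CPM in Ler). F-box genes, which encode the substrate adaptors of a ubiquitin ligase class, were 5 (6.10% against 0.835%). By words in the annotation, 8 belonged to the cell wall and 6 each were transporters, proteases or their inhibitors, and kinases or receptors. The cell wall, transporter and protease classes were not planned, and the kinase or receptor class was searched with wider words than planned. Search words of these classes occur in the members' own annotations. The shares of these classes are therefore not compared with those of all models. Planned classes such as glycosyltransferases, methyltransferases, jacalin lectins and transcription factors were not counted. All 5 F-box genes were called higher in asil2-2 than in the single mutants, but only AT1G27540 and AT5G38590 of them pass the filter in the single mutants alone. AT1G27540 had 152, 152 and 127 CPM in asil2-2, against 16.3, 14.4 and 14.5 in asil1-1 and 16.0, 14.1 and 14.9 in asil2-1, with no overlap (log2 difference 3.26 ± 0.20, edgeR adjusted p = 4.44e-08). Cell wall members included AT3G49270, with 145, 62.3 and 32.5 CPM in asil2-2, against 7.55, 6.83 and 14.9 in asil1-1 and 24.5, 9.76 and 9.76 in asil2-1 (log2 difference 2.73 ± 0.39, edgeR adjusted p = 0.000287). The pectin methylesterase gene AT4G02330 had 72.4, 91.1 and 52.5 CPM in asil2-2, against 8.08, 4.97 and 8.52 in asil1-1 and 8.54, 6.23 and 10.6 in asil2-1 (log2 difference 3.20 ± 0.49, edgeR adjusted p = 0.000599).

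The tissue markers gave these values beside the members. The 14 embryo genes, such as LEC1 and FUS3, had reads in every genotype and summed to 793 to 1227 CPM in asil1-1 asil2-2, 1296 to 1417 in asil2-2, 1042 to 1239 in asil1-1 and 1208 to 1259 in asil2-1, and 0 of 13 tested were called between asil2-2 and the single mutants. The 15 seed coat genes, none at 0 in any genotype, summed to 1292 to 2262 CPM in asil1-1 asil2-2, 966 to 1560 in asil2-2, 1370 to 1785 in asil1-1 and 1459 to 2100 in asil2-1, and 3 (TT10, SBT1.7 and PER36) were lower in asil2-2. The 12 endosperm genes, which include EPR1, summed to 393 to 557 CPM in asil1-1 asil2-2, 299 to 369 in asil2-2, 321 to 417 in asil1-1 and 283 to 490 in asil2-1, and FWA alone of 9 tested was lower in asil2-2. None of the 3 lists had a gene called higher in asil2-2 than in the single mutants. In asil1-1 asil2-2 the embryo sum lay below that of every asil2-2 library and the endosperm sum above. The endosperm sum was mostly SUC5, with means of 343 CPM in asil1-1 asil2-2 and 234 in asil2-2. EPR1, FIS2, MEA, IKU2, MINI3 and CKX2 of that list averaged lower in asil1-1 asil2-2 than in asil2-2. The others averaged higher as SUC5 did: ALE1 (75.1 against 45.5 CPM), ZOU (22.5 against 11.0), PHE1 (13.8 against 2.24), FWA (11.8 against 5.08) and AGL62 (0.788 against 0.360). MEA, AGL62, IKU2, MINI3 and CKX2 averaged at most 1.28 CPM in both. None of the 9 tested was called between these 2 genotypes. The seed coat gene PMEI6 was higher in asil1-1 asil2-2 than in the single mutants, and TT10 was higher than in asil2-2. The root stem cell gene PLT1, of the embryo list, was lower than in asil2-2. The part of tissue makeup in the members' levels was not tested, and in such bulk RNA fewer cells of a type and less RNA per cell cannot be told apart.

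In asil1-1 asil2-2, the mutant of mixed accession, the members split by chromosome. Against the Columbia-0 single mutants 42 of 81 members were higher and 0 lower by edgeR (adjusted p under 0.05), where 0.947% of models were called higher and 0.581% lower. The log2 differences of those called ran from 1.28 to 8.49. By chromosome the called members were 1 of 23 on chromosome 1, 4 of 8 on chromosome 2, 10 of 12 on chromosome 3, 8 of 15 on chromosome 4 and 19 of 23 on chromosome 5. The share of all models called was not counted by chromosome, here or against asil2-2. Of the 37 members that pass the filter in the single mutants alone 19 were called, namely 0 of 9 on chromosome 1, 2 of 4 on chromosome 2, 4 of 4 on chromosome 3, 3 of 7 on chromosome 4 and 10 of 13 on chromosome 5; the other 23 calls passed through groups in which they are higher and carry no weight. Against asil2-2, 8 members were lower and 0 higher, where 0.205% of models were called lower and 1.24% higher, and all 8 were on chromosome 1. In asil1-1 asil2-2 alone 51 of the 81 pass the filter, of which AT1G27540, PERK15 and PANK1 were called, 3 of 7 on chromosome 1 and 0 of 44 elsewhere; the other 5 calls, AT1G58602 included, carry no weight. These comparisons share libraries with each other and with that of asil2-2 and the single mutants, so no overlap between them is counted. Without the 2 libraries that stand apart, 23 members were lower than asil2-2, of which 15 were on chromosome 1, and without asil1-1 asil2-1 replicate 1 alone 21, of which 15 were on chromosome 1. That count was 5 without asil1-1 asil2-2 replicate 1 or asil2-2 replicate 2 or 3 and 13 without asil1-1 asil2-2 replicate 3, and the count higher than the single mutants was 27 without asil1-1 asil2-2 replicate 1.

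AT4G18150, a DUF1296 protein, had 39.6, 28.9 and 29.8 CPM in asil1-1 asil2-2, against 4.74, 3.85 and 7.62 in asil1-1 and 6.45, 3.74 and 5.65 in asil2-1 (log2 difference 2.62 ± 0.25, edgeR adjusted p = 2.02e-05). The genes that follow passed the filter through other groups, so no test is given for them. AT5G15360 on chromosome 5 was 8.49 ± 0.68 higher in asil1-1 asil2-2 than in the single mutants on the log2 scale. AT4G19240 on chromosome 4 was 8.27 ± 0.71 higher, although its 26.2 to 81.7 CPM there lay below the lowest asil2-2 library. AT5G03810, the lipase gene, had 22.0, 24.2 and 17.8 CPM in asil1-1 asil2-2, against 0.176, 0.621 and 0.387 in asil1-1 and 0.967, 0.831 and 0.514 in asil2-1 (log2 difference 5.17 ± 0.43). All replicates of asil1-1 asil2-2 were far above the single mutants in that gene. AT5G57810 (TET15), a tetraspanin of the cell membrane, had 15.9, 8.75 and 17.8 CPM in asil1-1 asil2-2, against 1.41, 2.73 and 1.03 in asil1-1 and 0.645, 1.25 and 0.856 in asil2-1 (log2 difference 3.53 ± 0.35).

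On chromosome 1 the same genotype lay near the Columbia-0 level. AT1G27540 had 14.9, 12.8 and 33.4 CPM in asil1-1 asil2-2, against 152, 152 and 127 CPM in asil2-2 (log2 difference -2.76 ± 0.25, edgeR adjusted p = 6.94e-06). AT1G58602, which encodes a disease resistance protein with NB-ARC and leucine-rich repeat domains, had 1.90, 0 and 5.22 CPM in asil1-1 asil2-2, against 42.3, 43.0 and 36.5 CPM in asil2-2 (log2 difference -3.81 ± 0.49). Every asil1-1 asil2-2 library was below every asil2-2 library in both genes. PERK15 had 6.75, 2.02 and 9.05 CPM in asil1-1 asil2-2, against 28.0, 32.5 and 26.5 CPM in asil2-2 (log2 difference -2.14 ± 0.32, edgeR adjusted p = 0.00168), and PANK1 had 18.3, 10.096 and 15.8 CPM, against 42.1, 56.0 and 44.5 CPM in asil2-2 (log2 difference -1.63 ± 0.29, edgeR adjusted p = 0.00674). AT1G27580, AT1G27570, AT1G24388 and AT1G66420, a storekeeper-related DNA-binding protein, were also called lower. With AT1G58602 these are the calls that carry no weight because of the filter.

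The exception on chromosome 1 was AT1G45191 (BGLU1), a glycosyl hydrolase gene. It had 14.2, 12.1 and 4.18 CPM in asil1-1 asil2-2 and 11.4, 7.02 and 6.01 in asil2-2, against 1.23, 0.124 and 0.258 in asil1-1, 3.22, 0.416 and 1.37 in asil2-1 and 0 in every Col-0 library. It was 3.43 ± 0.60 higher than in the single mutants on the log2 scale. BGLU1 passed the filter through other groups, so no test is given. Its call was lost without replicate 1 of asil1-1 asil2-2, where the log2 difference was 3.01.

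The place of asil1-1 asil2-2 between its 2 neighbours was also measured on the linear CPM scale, with 0 for the mean of the single mutants and 1 for asil2-2, over the 74 members called between those groups. Of these 74, 42 passed the filter through groups in which they are higher, 14 of them on chromosome 1. The libraries that set 0 and 1 also chose the 74, so the places describe levels and carry no test. The median place was 0.06 on chromosome 1, 0.74 on chromosome 2, 0.92 on chromosome 3, 0.43 on chromosome 4 and 0.69 on chromosome 5. On chromosome 1, 20 of 21 members were under 0.5, and on the other chromosomes 19 of 53. Of these 19, 9 were among the 14 members on chromosome 4, such as AT4G13080 (XTH1) and AT4G25000 (AMY1), each at 0.07. Of the genes at least 4 times higher in Col-0, those called lower in asil2-2 than in the single mutants had a median place of 0.00 on chromosome 1, where 36 of 39 were under 0.5, and 0.66 on the other chromosomes, where 33 of 104 were. On the log2 scale the members' medians were 0.09 on chromosome 1 and 0.83 on the others, and that of chromosome 4, 0.57, lay on the other side of 0.5. For the genes higher in Col-0 the log2 medians were 0.05 on chromosome 1 and 0.46 on the others, where 55 of 104 were under 0.5, so on the other chromosomes their side of the midpoint depended on the scale.

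**Figure D3:**
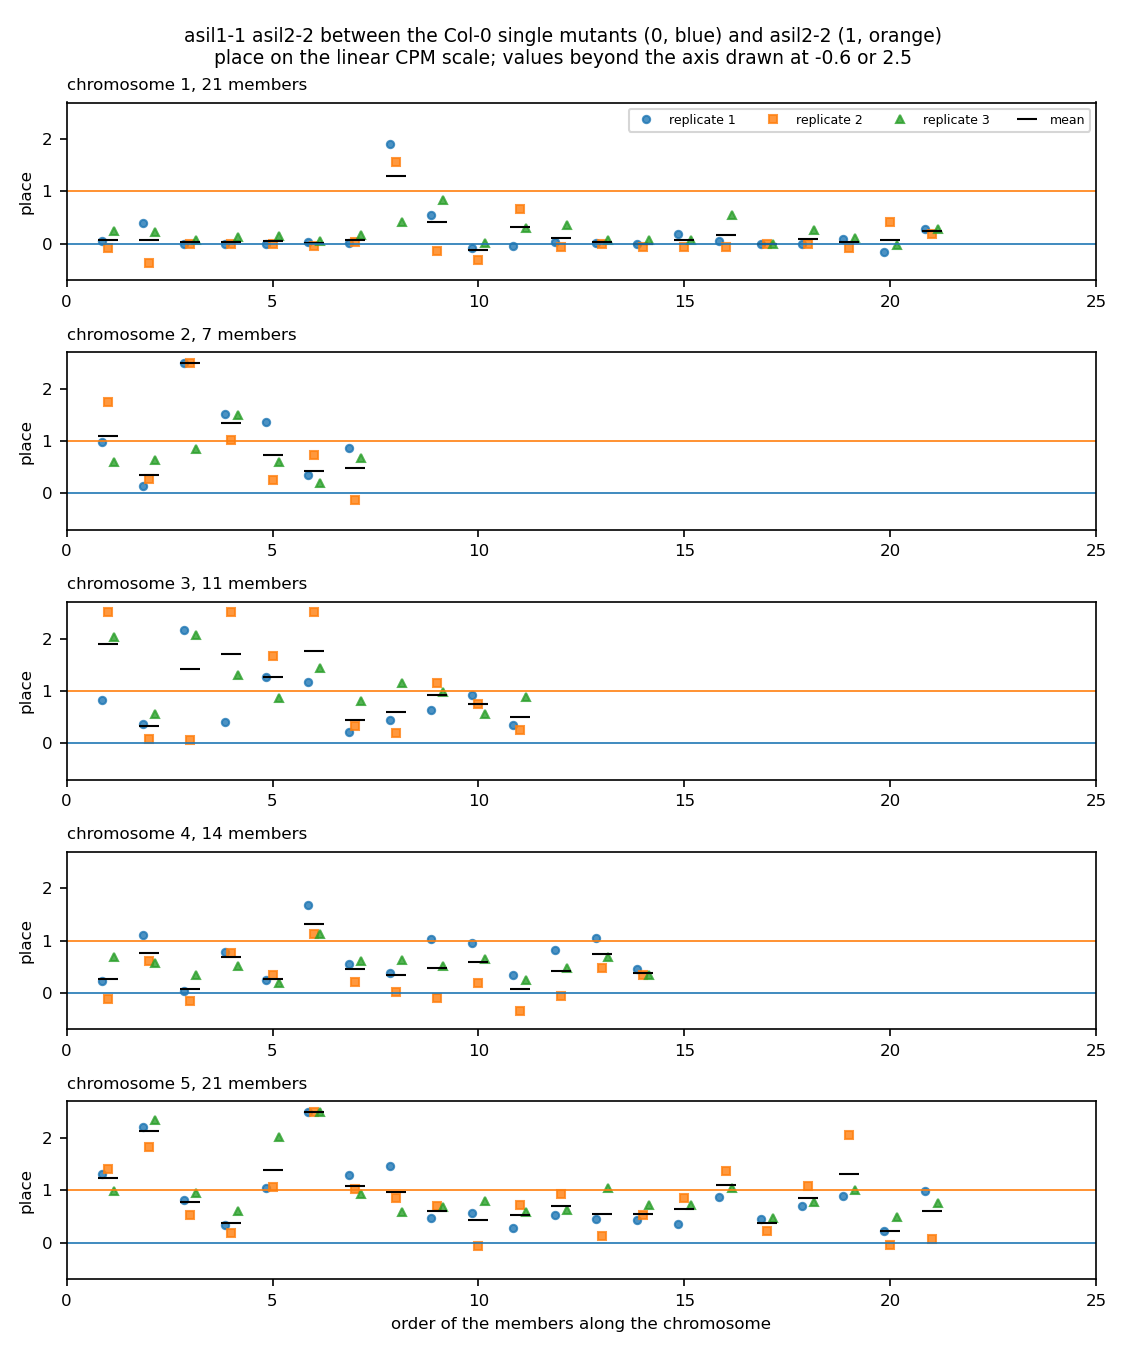
Place of asil1-1 asil2-2 for each of 74 members, in order along each chromosome (x axis), on the linear CPM scale (y axis), with 0 for the mean of asil1-1 and asil2-1 and 1 for asil2-2; points are replicates and dashes their mean, and values beyond the axis are drawn at its edge. On chromosome 1 20 of 21 means are under 0.5, and BGLU1 is the exception. Of the 74, 42 passed the filter on low counts through groups in which they are higher, 14 of them on chromosome 1.

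The replicates of asil1-1 asil2-2 were not alike. The median place over the 74 members was 0.44, 0.26 and 0.60 in replicates 1, 2 and 3. On chromosome 1 it was 0.00, -0.02 and 0.14. Of 15 members that stayed under 1 CPM in all 9 libraries of asil1-1, asil2-1 and Col-0, 14 had reads in replicate 3 and 12 each in replicates 1 and 2. AT1G24388 on chromosome 1 had 4.18 CPM in replicate 3 and 0 in replicates 1 and 2. On chromosome 4 the medians were 0.67, 0.19 and 0.54.

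The scale itself puts the asil2-2 libraries near 1 and those of asil1-1 and asil2-1 near 0, and Ler and Col-0 chose the members, so the places of these libraries are no finding and show their scatter. The median place was 1.03, 1.01 and 0.92 in the asil2-2 libraries and 0.94, 1.06 and 0.98 in the Ler libraries, and it lay between -0.02 and 0.01 in the 9 libraries of asil1-1, asil2-1 and Col-0. In asil1-1 asil2-1 it was 0.11, 0.01 and 0.08. In replicate 3 of that genotype the shift was small and spread over the genome, with medians of 0.07, 0.03, 0.12, 0.06 and 0.11 on chromosomes 1 to 5 and quartiles of 0.03 and 0.14 over all 74 members. In replicate 1 it was uneven, with quartiles of -0.04 and 0.49, and 31 of 74 members had a place of at least 0.25, against 9 in replicate 2 and 7 in replicate 3. Places use scaled CPM, and the scaling factor of replicate 1 was 0.631, against 1.00 and 1.02 in replicates 2 and 3, which raises its places relative to the plain CPM printed here. Over the 15 members under 1 CPM in the other Columbia-0 libraries, replicate 3 had 221 reads in 14 of them (summed 31.9 CPM), replicate 2 had 16 reads in 8 (2.93 CPM) and replicate 1 had 127 reads in 8 (30.7 CPM).

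**Figure D4:**
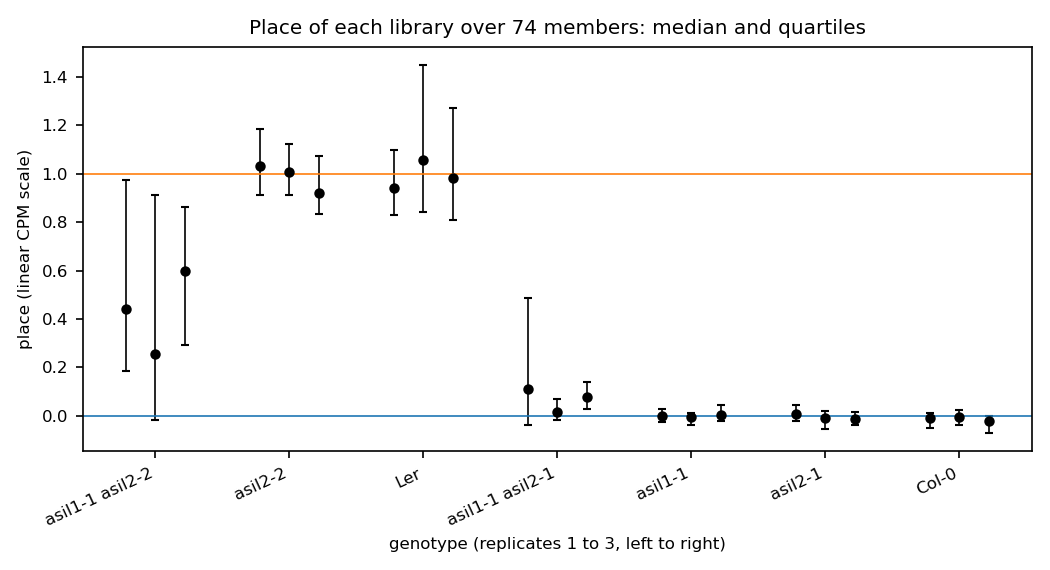
Median place of each library over the 74 members (points, replicates 1 to 3 from left to right within a genotype) with quartiles (bars), on the linear CPM scale, 0 for the mean of asil1-1 and asil2-1 and 1 for asil2-2. The asil1-1 asil2-2 libraries lie between 0.26 and 0.60, and replicates 1 and 3 of asil1-1 asil2-1 lie above the other libraries labelled Columbia-0. Of the 74, 42 passed the filter on low counts through groups in which they are higher.

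Along the genome there were 23 members on chromosome 1, 8 on chromosome 2, 12 on chromosome 3, 16 on chromosome 4 and 23 on chromosome 5. As a share of models at 5 CPM in Ler these are 0.622%, 0.373%, 0.426%, 0.743% and 0.692%. In windows of 5 Mb the highest share was 2.75% (3 of 109 models) between 10 and 15 Mb on chromosome 5, followed by 1.62% (9 of 556) between 20 and 25 Mb on chromosome 1. Members with at most 2 protein-coding genes between them formed 4 pairs.

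On chromosome 4, AT4G29760 and AT4G29770, both annotated as targets of trans-acting small RNAs, lie head to tail at chr4:14573600-14575366 and chr4:14575718-14577643 on the plus strand. AT4G29760 had 13.6, 18.1 and 22.6 CPM in asil2-2, against 0.703, 1.24 and 0.646 in asil1-1 and 0.967, 1.45 and 1.37 in asil2-1 (log2 difference 4.09 ± 0.56). AT4G29770 had 8.67, 13.6 and 11.7 CPM in asil2-2, against 2.46, 2.73 and 1.55 in asil1-1 and 2.74, 1.45 and 3.60 in asil2-1 (log2 difference 2.22 ± 0.31, edgeR adjusted p = 0.000281). In neither gene did the groups overlap. AT4G29760 shares its strand and position with the annotated gene AT4G08215, so reads could be split.

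The pair AT4G15165, a peptidase-fold gene, and AT4G15200 (FH3), a formin that nucleates actin filaments, encloses AT4G15180, which did not follow them. AT4G15180 averaged 308 ± 10.5 CPM in asil2-2, against 297 ± 16.4 in asil1-1 and 289 ± 2.53 in asil2-1 (SD, n = 3). FH3 averaged 24.7 ± 12.8 CPM in asil2-2, against 1.27 ± 0.14 in asil1-1 and 2.35 ± 0.48 in asil2-1 (log2 difference 3.83 ± 0.64, edgeR adjusted p = 0.00127). AT4G15165 averaged 9.34 ± 0.89 CPM in asil2-2, against 1.03 ± 0.60 in asil1-1 and 1.12 ± 0.08 in asil2-1 (log2 difference 3.12 ± 0.46).

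On chromosome 5, PP2C74 and AT5G36260, an aspartyl protease gene, converge at chr5:14282059-14284684 and chr5:14284832-14288409. AT5G36260 averaged 9.52 ± 1.698 CPM in asil2-2, against 1.35 ± 0.47 in asil1-1 and 1.23 ± 0.33 in asil2-1 (log2 difference 2.86 ± 0.56). On chromosome 1, AT1G27570 and AT1G27580 form the remaining pair, with AT1G27540 a short way off. AT1G27570 had 39.8, 48.7 and 42.9 CPM in asil2-2, against 1.41, 1.12 and 0.387 in asil1-1 and 0.806, 0 and 0 in asil2-1 (log2 difference 6.32 ± 0.68). In AT1G27580 the log2 difference between the same groups was 4.99 ± 0.52.

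AT1G27540 and AT1G27580 are near copies, at 93.2% identity over 95% of the AT1G27580 transcript, so their reads may be mixed. In all, 8 members had a copy at 90% identity or more over at least 50% of the transcript. None of the copies of the other 6 members met the rule for members. AT5G03820, the copy of AT5G03810, averaged 72.5 ± 18.3 CPM in Ler and 65.4 ± 1.51 CPM in Col-0. AT2G24945, the copy of AT3G26800, had no listed reads in any library. Unlisted models were set to 0, so whether this locus was counted at all is not known. A further limit is that 18 members overlap another annotated gene, 12 of them on the opposite strand, AT1G24388 and AT3G60920 included. No source used here says whether the counting used strand.

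ASIL1 lies on chromosome 1 in the window of 20 to 25 Mb that holds 9 members. ESP lies 6.66 kb from it, and it averaged 1.04 ± 1.38 CPM in asil1-1 asil2-2 and 6.37 ± 2.11 CPM in asil2-2 (SD, n = 3). The members on either side of ESP, AT1G52618 and AT1G58050, averaged 2.78 ± 2.61 and 0.861 ± 0.310 CPM in asil1-1 asil2-2, against 7.80 ± 1.06 and 7.22 ± 0.0857 CPM in asil2-2. On chromosome 3 the nearest member to ASIL2 was AT3G15950 (NAI2), needed for endoplasmic reticulum bodies, at a distance of 688 kb. NAI2 had 21.1, 2.02 and 21.4 CPM in asil1-1 asil2-2 and 14.2, 9.07 and 9.09 CPM in asil2-2, which overlapped. AT3G11080 (RLP35), a receptor-like protein gene 1233 kb to the other side, averaged 2.90 ± 2.79 CPM in asil1-1 asil2-2 and 3.64 ± 0.947 CPM in asil2-2. Its mean was 1.81 ± 1.19 CPM in asil1-1 and 1.06 ± 0.714 in asil2-1. RLP35 was not called between asil2-2 and these single mutants, so it does not place asil1-1 asil2-2 on either side.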

How the data were processed

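The values are read counts per gene model that the authors deposited as 1 table per library, with models without reads unlisted. Per the submitters' processing notes, the tools were Bowtie 0.12.7 and edgeR 3.0.8, with TAIR10 as build. How reads were counted, whether multiply mapping reads were kept and whether strand was used is not given in the sources here. The labels say biological replicates, without naming plants or pools.

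Tables were joined with 0 for unlisted models, and 26100 of 26496 matched a locus tag of the RefSeq TAIR10.1 annotation, which gives the coordinates; the deposited files hold none. CPM is a count over its library's total times 1000000. The 4 comparisons were contrasts in 1 fit of the 15 mutant libraries with edgeR 4.0.16 (R 4.3.3): TMM scaling, filterByExpr by group (minimum count 10, minimum total 15), quasi-likelihood test and Benjamini-Hochberg adjustment over 18062 models, called under 0.05. Wild types stayed out because they chose the members. Standard errors are the log2 fold change over the square root of F. Places use TMM-scaled CPM, and log2 places a prior count of 2. A floor is 3 counts over a group, and intervals are exact at 95%. Copies were sought with blastn 2.17.0. The script was tested on simulated counts.

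The members and lists were chosen with earlier results of these data known. Genes were named by rule: the 10 highest in Ler, the 10 largest ratios, pairs, up to 5 lowest adjusted p per comparison in asil1-1 asil2-2 and between asil1-1 and asil2-1, those at a threshold or not called, list members and those nearest to ASIL1 and ASIL2. About 30 of these get values. AT5G39770, AT5G45113, AT1G66420 and the genes in the 2 doubted libraries were named after their values were seen. After each genotype's mean log2 CPM was subtracted, same-numbered libraries of different mutants correlated between -0.0797 and 0.334, over 0.1 in 10 of 30 pairs. Differently numbered libraries were not compared, so whether the numbers mark pairs was not settled. In the main fit they were not treated as pairs. Alternatives were RLE scaling, no filter, all 21 libraries, only the compared groups, a replicate block, DESeq2 1.42.0, asil1-1, asil2-1 or all 3 Columbia-0 mutants as reference, and each library left out. Figures used matplotlib 3.10.9.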

Additional observations from a re-analysis of the deposited data

Results flagged for a closer look

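In replicates 3 and 1 of asil1-1 asil2-1, a genotype labelled Columbia-0 and on neither side of the 4 main comparisons, transcripts of members otherwise near absence in that accession were present. In replicate 3 AT4G19240 had 11.1 CPM, against at most 0.870 CPM in each of 9 libraries of asil1-1, asil2-1 and Col-0. AT1G24388 had 5.49 CPM, against at most 0.514 CPM in those libraries. In replicate 1 AT5G39770 had 9.67 CPM, against at most 0.441 CPM there, AT5G45113 had 8.22 CPM, against at most 0.463 CPM, and AT3G60920 had 6.77 CPM, against at most 0.621 CPM. Genes low in Ler as well also had reads in this genotype, such as MINI3 with a mean of 5.36 ± 8.97 CPM (SD, n = 3), unevenly over its 3 libraries. What brought these reads there was not tested.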

How the results depend on the processing

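Calls of members between asil2-2 and the Columbia-0 single mutants ranged from 62 (asil2-1 alone as reference) to 81 (without the 2 libraries that stand apart), 65 to 78 with each of the 15 mutant libraries left out, and 73 with asil1-1 asil2-1 added to the reference or with a replicate block. For asil1-1 asil2-2 against the single mutants they were 42, 41 with the block, 55 without those 2 libraries and 27 to 52 leave-one-out, the lowest without asil1-1 asil2-2 replicate 1 and the highest without asil1-1 asil2-1 replicate 1. Against asil2-2 they were 8, 10 with the block, 15 with DESeq2 (12 on chromosome 1), 17 with all 21 libraries (15 on chromosome 1), 23 without the 2 libraries, and 5 to 21 leave-one-out: 5 without asil1-1 asil2-2 replicate 1 or asil2-2 replicate 2 or 3, 13 without asil1-1 asil2-2 replicate 3 and 21 without asil1-1 asil2-1 replicate 1. Between asil1-1 and asil2-1 they were 0 in each setting run.

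Calls over all models moved more. For asil2-2 against the single mutants there were 927, but 2757 with only the compared groups, 2925 without the 2 libraries, 586 against asil2-1 alone and 492 to 1934 with each library left out. For asil1-1 asil2-2 against the single mutants there were 276, but 490 with all 21 libraries, 426, 744 without the 2 libraries, 628 with DESeq2 and 131 to 817 leave-one-out. Against asil2-2 there were 261, but 446, 150, 622 and 639 in the same order and 113 to 691 leave-one-out. Between asil1-1 and asil2-1 there were 5, but 2 with no filter, 35 without the 2 libraries, 23 with only the compared groups, 3 with the replicate block, 20 with DESeq2 and 2 to 18 leave-one-out. In all 4 the highest was without asil1-1 asil2-1 replicate 1, the library with 45.7% of its counts in 1 locus. With 10 CPM as minimum there were 51 members, and 72 to 88 with a wild-type library left out. The cause of these moves was not tested.

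JMT, not called, turned to -0.43 against asil1-1 alone, -0.07 without asil2-1 replicate 1 and -0.43 without asil2-2 replicate 1, in a leave-one-out range of -0.43 to 0.47 (log2, asil2-2 minus single mutants). ESP lost its call in 3 settings (without asil2-2 replicate 1, or with asil1-1 or asil2-1 alone as reference), AT1G24388 against asil2-2 in 3 (DESeq2, asil1-1 asil2-2 replicate 1 or asil2-2 replicate 3 left out) and PANK1 without asil2-2 replicate 2; EPR1 and AT4G08760 gained a call in 7 each. Leaving out libraries of groups not compared was chosen after seeing the data. Counts of 0 to 3 reads limit 14 members in Col-0.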
